A study of Homo sapiens with 6 samples.

Results

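The genes described here encode RhoGAP and RhoGEF proteins, taken as every gene with a symbol starting ARHGAP or ARHGEF, antisense transcripts left out. Each gene was read from its brightest probe set (a group of short probes for one transcript) that is paired with a single gene, and was kept where the mean over all 6 arrays was above 3.6 on the log2 scale. Of 56 such genes on the array, 51 passed this limit, 29 RhoGAP and 22 RhoGEF genes, among 14199 genes in the series. RNA came from SW480, a line established from a human colon carcinoma. The titles give 3 arrays for a control short hairpin RNA (shRNA) and 3 for a gankyrin shRNA, which targets PSMD10, and both groups carried their shRNA for 4 days. All cells came from the same line, so every group shares its genetic background, and a single knockdown condition was profiled. Nothing in the labels ties the replicates to separate cultures, so p-values measure the variation among these arrays, which may be purely technical.

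RhoA, Rac1 and Cdc42 are small GTPases, molecular switches that organise actin filaments, cell contraction, adhesion and migration. RhoGEFs (guanine nucleotide exchange factors) load them with GTP and switch them on, and RhoGAPs (GTPase-activating proteins) speed up GTP hydrolysis and switch them off. In epithelial cells the balance of both classes at junctions and at the cell front shapes adhesion and movement.

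PSMD10, read first as a check of the labels, had log2 signals of 10.19, 10.23 and 10.15 on the control arrays, against 6.58, 6.47 and 6.30 on the knockdown arrays; array values are given in the order of the replicate numbers throughout. It fell on every knockdown array, by 3.74 on the log2 scale (± 0.08 SE, limma adjusted p = 6.81e-09). With 3 arrays a side, the exact permutation test (two-sided) can go no lower than p = 0.1, and it gave that value. NFIL3, named in place of gankyrin in one sentence of the series design, had a log2 fold change of -0.26 ± 0.07 SE. It was called as lower (limma, adjusted p = 0.0281), and its exact permutation p was 0.1 too. The call was lost without control replicate 2 or each knockdown array in turn (adjusted p = 0.063 to 0.112). It was also lost without the intensity trend in the variance (0.0621). Of 10 colon epithelial carcinoma markers 9 lay above the low-end reference of the scale, the 95th percentile of 196 probe sets for olfactory and taste receptor, hair keratin-associated and lens crystallin genes (5.01). CDX2 did not. Of the markers on the array, 1 of 7 fibroblast, 2 of 6 leukocyte and 2 of 7 endothelial genes lay above it. Those above were COL1A1, CD79A, ITGAM, ESAM and PECAM1, and PTPRC, COL1A2 and CDH5 were among those below. ESAM had means of 8.58 on control and 7.91 on knockdown arrays, a fall (limma, adjusted p = 0.0021), and COL1A1 had means of 7.01 and 7.22. The mean log2 signal of the colon list was 9.01 to 9.06 on control and 8.84 to 8.91 on knockdown arrays. That of the leukocyte list was 4.42 to 4.56 on control arrays and 4.58 to 4.69 on knockdown arrays, and the part of either in the results was not tested. Control replicate 3 stood apart on the probe sets near the start of control transcripts: the actin one was at 10.99 there against 12.16 and 12.17 on the other control arrays and 12.10 to 12.19 on knockdown arrays. The 3 ribosomal RNA control probe sets lay 0.79 to 1.29 log2 units higher on knockdown arrays, and their part in the results was not tested.

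Few RhoGAP and RhoGEF genes changed, and 1 of them changed strongly. ARHGAP6, a GAP for RhoA, rose 3.22-fold and was the only one of the 51 genes whose change reached 2-fold. ARHGAP24, ARHGAP42 and ARHGAP29 rose by smaller amounts, and ARHGAP45, ARHGAP39, ARHGAP23, ARHGEF18 and ARHGEF37 fell, none by more than 1.47-fold. Past the threshold (adjusted p under 0.05, limma, Benjamini-Hochberg over all genes) were 9 of 51 genes, or 17.6%, against 22.5% of all genes tested. Rises made up 4 of 51 (7.84%) against 8.13% of all genes, and falls 5 of 51 (9.80%) against 14.3%. The shares were near or below those of all genes, and no excess of changed genes was seen. The median log2 fold change was -0.03 over the 51 genes and -0.02 over all genes, and the median absolute change was 0.14 in both. Without control replicate 3 there were 5 rises and 7 falls, against 12.7% and 16.6% of all genes.

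**Figure D1:**
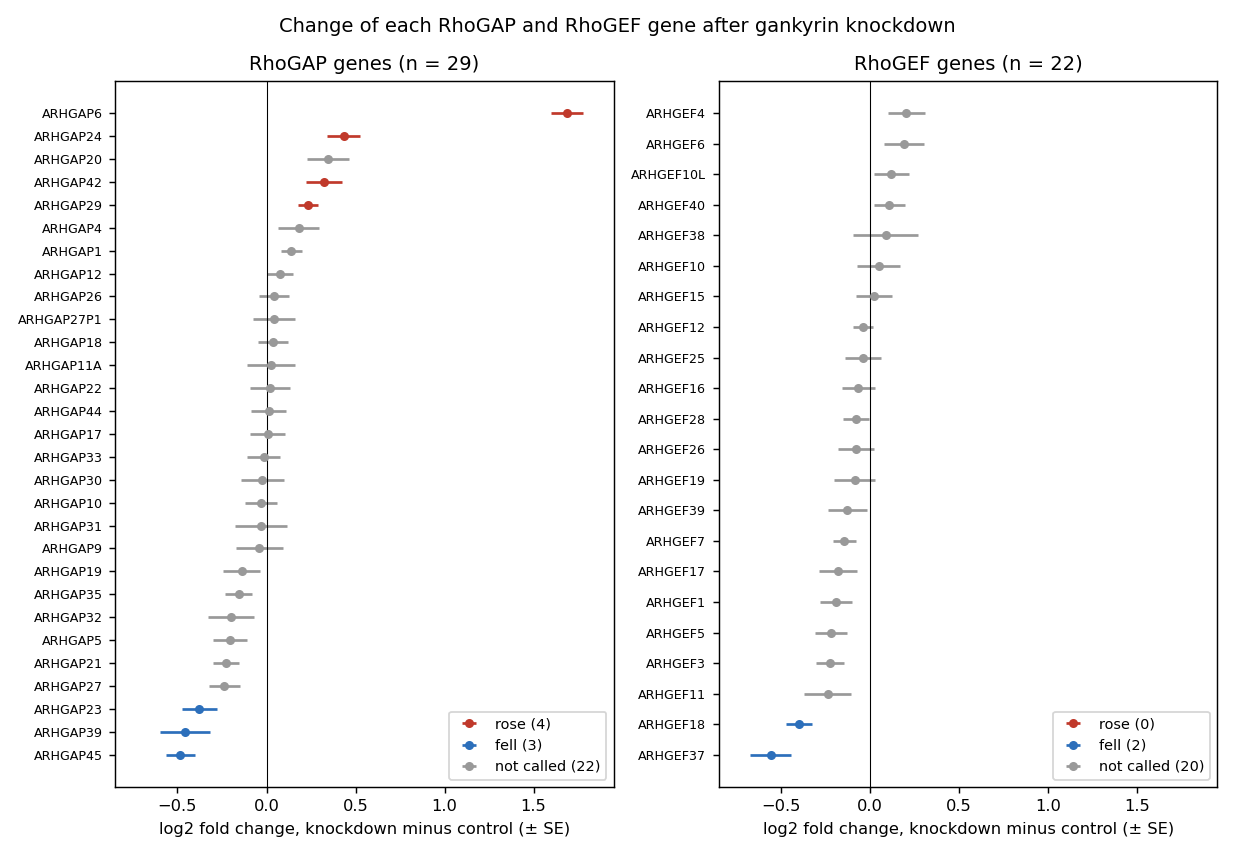
Log2 fold change (knockdown minus control, horizontal axis, bars ± SE) of each of 29 RhoGAP and 22 RhoGEF genes, ordered by change within each class; red points rose, blue points fell and grey points did not pass the threshold. ARHGAP6 at 1.69 lies far to the right of every other gene, and all RhoGEF genes lie between -0.56 and 0.20.

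The RhoGAP genes held all 4 rises. Of 29 RhoGAP genes 4 rose, 3 fell and 22 did not pass, which is 24.1% called against 22.5% of all genes, with a median log2 fold change of 0.01. Of 22 RhoGEF genes 0 rose and 2 fell (limma, 9.09% called), with a median of -0.08. At an unadjusted p under 0.05, 0 RhoGEF genes were higher and 5 were lower (22.7%), against 13.1% and 22.2% of all genes. For RhoGAP genes these counts were 6 higher (20.7%) and 5 lower (17.2%). Without control replicate 3 the GEF ARHGEF40 rose. The RhoGAP counts went to 2 rises without knockdown replicate 1 or 2, and to 1 fall without knockdown replicate 1 or 3. Negative values were found for 14 of the 29 RhoGAP and 15 of the 22 RhoGEF genes, and for 7613 of all 14199 genes. Whether the 2 classes differ was not tested.

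ARHGAP6 is a GAP that acts on RhoA and also remodels actin independently of its GAP activity. On the control arrays it read 6.18, 6.18 and 6.37, and on the knockdown arrays 7.98, 8.0 and 7.81 (log2 signal). Every knockdown array lay far above every control array, and the SDs were 0.11 and 0.10. The log2 fold change was 1.69 ± 0.09 SE (limma, adjusted p = 3.87e-06), the 3rd largest rise of the 14199 genes. It passed under each of 15 alternative settings, with values from 1.65 to 1.75. A second ARHGAP6 probe set lay below the brightness limit, so the rise rests on 1 probe set. The settings that vary the probe set used this same one and could not change the value.

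The promoter of ARHGAP6 is shown because this gene changed most, and one promoter each of ARHGAP24, which rose, and ARHGAP45, which fell, because both hold a short motif of TEAD factors. Each sequence is the 250 bases before an annotated transcript start, from RefSeq on GRCh38.p14, read in the direction of the gene. Capitals mark the TEAD motif GGAATG on either strand, and no other motif searched was found in these windows. The ARHGAP6 window is chrX:11665921-11666170 on the minus strand, the ARHGAP24 window chr4:85827687-85827936 on the plus strand, the downstream of 2 listed starts, and the ARHGAP45 window chr19:1065709-1065958 on the plus strand, the first of 4 listed starts.
ARHGAP6: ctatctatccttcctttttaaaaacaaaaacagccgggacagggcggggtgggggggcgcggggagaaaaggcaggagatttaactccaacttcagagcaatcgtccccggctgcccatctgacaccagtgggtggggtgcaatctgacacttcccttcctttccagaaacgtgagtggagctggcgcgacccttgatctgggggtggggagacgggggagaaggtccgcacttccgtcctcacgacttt
ARHGAP24: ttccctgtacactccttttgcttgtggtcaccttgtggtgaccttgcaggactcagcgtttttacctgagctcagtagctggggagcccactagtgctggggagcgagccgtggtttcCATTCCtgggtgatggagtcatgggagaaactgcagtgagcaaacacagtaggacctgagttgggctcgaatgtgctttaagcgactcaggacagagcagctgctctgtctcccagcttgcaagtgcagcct
ARHGAP45: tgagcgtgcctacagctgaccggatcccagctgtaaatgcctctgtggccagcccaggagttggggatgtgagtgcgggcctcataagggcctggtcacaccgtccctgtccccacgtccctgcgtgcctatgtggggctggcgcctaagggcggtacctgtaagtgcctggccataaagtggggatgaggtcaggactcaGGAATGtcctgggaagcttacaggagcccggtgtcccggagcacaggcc

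Promoters were listed for 38 of the 51 genes, in 79 windows of 250 bases. ARHGAP17, ARHGAP20, ARHGAP27P1, ARHGAP33, ARHGAP35, ARHGAP39, ARHGAP44, ARHGAP9, ARHGEF10, ARHGEF15, ARHGEF17, ARHGEF25 and ARHGEF39 were not matched. On both strands, GGAATG was in 5 of the 79 windows (6.33%) against 11.9% of all 35116 windows, in ARHGAP21, ARHGAP22, ARHGAP24, ARHGAP45 and ARHGEF28. E2F motifs (TTTCCCGC, TTTCGCGC, TTTGGCGC or TTTGCCGC), the AP-1 motif TGANTCA, the cyclic AMP response element TGACGTCA and the serum response CArG box were in 0 of the 79 windows, against 2.79%, 6.57%, 1.65% and 1.16% of all windows. The motifs do not overlap one another in the windows shown. The median GC content was 67.6% in the 79 windows and 58.0% in all windows. Of the windows shown, that of ARHGAP6 has 57.6% GC, that of ARHGAP24 54.8% and that of ARHGAP45 62.8%.

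Of 10 measured RhoGAPs directed mainly at RhoA, 3 rose (30%) and 0 fell (limma, also 3 and 0 at an unadjusted p under 0.05). Among all genes 8.13% rose and 14.3% fell (13.1% and 22.2% unadjusted). The count is small, and whether this group differs from all genes was not tested. The median log2 fold change was 0.03 against -0.02 for all genes. The genes that rose were ARHGAP6, ARHGAP42 and ARHGAP29. ARHGAP42, known as GRAF3 and best studied as a RhoA GAP of smooth muscle, had log2 signals of 4.77, 4.94 and 4.68 in control and 5.12, 5.17 and 5.07 in knockdown replicates 1 to 3. The control mean of 4.80 lay below the low-end reference of 5.01, and the knockdown mean of 5.12 just above it. Every knockdown array lay above every control array. Its log2 fold change was 0.32 ± 0.10 SE (limma, adjusted p = 0.0436). This call was lost without control replicate 1 or 3 (adjusted p = 0.0921 and 0.0658), without knockdown replicate 1, 2 or 3 (0.12, 0.14 and 0.0939) and with arrays centred on their medians (0.0614) or no filter on low signals (0.060). The related GRAF genes ARHGAP26 and ARHGAP10 were at 0.04 ± 0.08 and -0.03 ± 0.09 (log2 fold change ± SE) and did not pass.

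ARHGAP29, a RhoA GAP that binds the phosphatase PTPN13, had log2 signals of 11.46, 11.48 and 11.41 in control and 11.72, 11.77 and 11.56 in knockdown replicates 1 to 3. The groups did not overlap, and the change was small, at 0.23 ± 0.05 (log2 fold change ± SE, limma, adjusted p = 0.0138). The call was lost without knockdown replicate 1 or 2 (adjusted p = 0.064 and 0.0677), when its 3 probe sets were averaged (0.404) and without the intensity trend in the variance (0.0704). The other RhoA-directed GAPs did not pass. Among them ARHGAP5 and ARHGAP35, a pair of closely related GAPs regulated by adhesion, were at -0.20 ± 0.09 and -0.16 ± 0.07. ARHGAP35 turned to 0.13 with probe sets averaged and to 0.27 with _s_at and _x_at probe sets (suffixes of probe sets that can match several transcripts) avoided, and passed in neither. ARHGAP18 was at 0.04 ± 0.08, and the mitotic GAPs ARHGAP11A and ARHGAP19 were at 0.02 ± 0.13 and -0.14 ± 0.10. Both group means of ARHGAP11A lay below the low-end reference.

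Of 11 measured RhoGAPs directed mainly at Rac and Cdc42, 1 rose and 1 fell (limma, 9.09% each), with a median log2 fold change of -0.02. Among all genes 8.13% rose and 14.3% fell. ARHGAP24 (FilGAP), a Rac GAP that binds the actin crosslinker filamin A, was at 5.52, 5.54 and 5.57 in control and 6.08, 5.87 and 5.98 in knockdown replicates 1 to 3 (log2 signal). The control arrays lay within 0.05 of each other and all knockdown arrays above them. ARHGAP24 rose by 0.43 ± 0.09 on the log2 scale (limma, adjusted p = 0.00819) and passed without each array in turn. With its probe sets averaged it was at 0.21 (adjusted p = 0.103): the second probe set, at a mean signal of 3.70, had a log2 difference of -0.02. The related ARHGAP22 was at 0.02 ± 0.11, with both group means below the low-end reference, and ARHGAP25 was below the brightness limit.

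ARHGAP39, a GAP for Rac and Cdc42 known from neuronal spines, was at 5.20, 5.28 and 5.64 in control and 4.74, 5.13 and 4.87 in knockdown replicates 1 to 3 (log2 signal). The knockdown mean of 4.91 lay below the low-end reference of 5.01. The lowest control and the highest knockdown array were close. Its log2 fold change was -0.46 ± 0.14 SE (limma, adjusted p = 0.0412), and leaving out control replicate 2, knockdown replicate 1 or knockdown replicate 3 ended the call (adjusted p = 0.0617, 0.157 and 0.129). It was also lost under quantile normalization, without the filter, with probe sets averaged and without the intensity trend (0.0503 to 0.0582). The pair ARHGAP17 and ARHGAP44, which curve membranes and act on Cdc42 and Rac, was at 0.01 ± 0.10 and 0.01 ± 0.10. ARHGAP12 was at 0.08 ± 0.07, ARHGAP31 at -0.03 ± 0.15, ARHGAP32 at -0.20 ± 0.13, ARHGAP33 at -0.02 ± 0.09 and ARHGAP9 at -0.04 ± 0.13. Both group means of ARHGAP44 and ARHGAP9 lay below the low-end reference. ARHGAP27 was at -0.24 ± 0.09 on its brightest probe set (limma, adjusted p = 0.0728), while 1 of its dimmer probe sets was at -0.47 ± 0.11 and passed (adjusted p = 0.0381 over all probe sets). Its remaining probe sets were at 0.35, 0.06 and -0.07 and did not pass, and the 0.35 went to -0.003 without control replicate 3. With probe sets averaged ARHGAP27 was at -0.07 (limma, adjusted p = 0.593).

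Among the 8 RhoGAP genes not assigned to a target here, 2 fell and 0 rose, against 14.3% and 8.13% of all genes. ARHGAP45, the source of a minor histocompatibility antigen, was at 6.84, 6.85 and 6.96 in control and 6.34, 6.47 and 6.39 in knockdown replicates 1 to 3 (log2 signal). The groups were clearly apart, with SDs of 0.07 in each. Its log2 fold change was -0.48 ± 0.08 SE (limma, adjusted p = 0.00299), and it passed under all 15 alternatives, with values from -0.52 to -0.34. ARHGAP23, a GAP with a PDZ domain, was at 9.91, 9.89 and 10.31 in control and 9.64, 9.65 and 9.69 in knockdown replicates 1 to 3.

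Control replicate 3 was the highest array of ARHGAP23. Its log2 fold change was -0.38 ± 0.10 SE (limma, adjusted p = 0.0224) and was -0.24 without that array, which still passed (0.00108). The call was lost without knockdown replicate 1, 2 or 3 (adjusted p = 0.0817, 0.0796 and 0.0695) and without the intensity trend (0.057), and the sign turned to 0.14 when its probe sets were averaged (adjusted p = 0.494). ARHGAP21, the paralog of ARHGAP23 that acts on Cdc42 and RhoA, had a log2 fold change of -0.23 ± 0.07 and just missed the threshold (limma, adjusted p = 0.0506); it passed without control replicate 3 (adjusted p = 0.0253). ARHGAP1, a ubiquitous GAP for Cdc42 and RhoA, was at 0.14 ± 0.06 with groups that did not overlap (limma, adjusted p = 0.108), and it passed without control replicate 3 (0.0235). ARHGAP20, with the largest change among the genes that did not pass, was at 0.35 ± 0.12 (limma, adjusted p = 0.0606), and both of its group means lay below the low-end reference of 5.01. ARHGAP4 and ARHGAP30 were at 0.18 ± 0.12 and -0.02 ± 0.12, and the pseudogene ARHGAP27P1, whose probes can share sequence with ARHGAP27, at 0.04 ± 0.12.

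**Figure D2:**
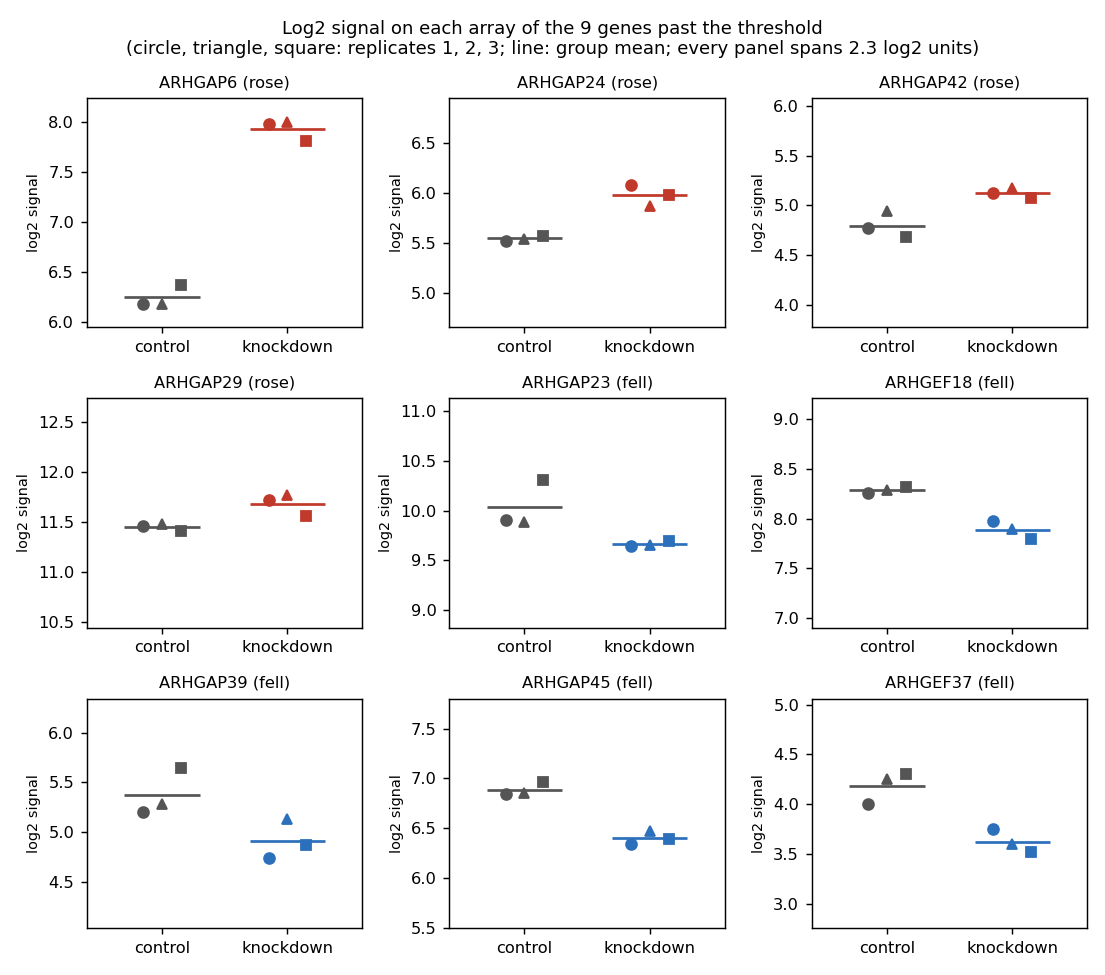
Log2 signal (vertical axis) on each control and knockdown array for the 9 genes past the threshold, 1 panel a gene, with replicates as symbols and group means as lines; every panel spans the same range. Only ARHGAP6 has groups more than 1 log2 unit apart, and control replicate 3 is the highest control array in every panel but those of ARHGAP29 and ARHGAP42.

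Of 14 measured RhoGEFs directed mainly at RhoA, 0 rose and 1 fell (limma, 0 and 3 at an unadjusted p under 0.05). Among all genes 8.13% rose and 14.3% fell (13.1% and 22.2% unadjusted). The median log2 fold change was -0.08 against -0.02 for all genes. The gene that fell was ARHGEF18, which activates RhoA at epithelial tight junctions. Its log2 signal was 8.26, 8.29 and 8.32 in control and 7.98, 7.90 and 7.79 in knockdown replicates 1 to 3. Every control array lay above every knockdown array. The log2 fold change was -0.40 ± 0.07 SE (limma, adjusted p = 0.00390), and it passed under all 15 alternatives, with values from -0.45 to -0.35. ARHGEF18 has a single probe set past the limit, so the settings that vary the probe set could not change its value.

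ARHGEF1, ARHGEF11 and ARHGEF12 share an RGS domain that couples G protein signals to RhoA. They were at -0.19 ± 0.09, -0.24 ± 0.13 and -0.04 ± 0.06 (log2 fold change ± SE) and did not pass (limma, adjusted p = 0.161, 0.223 and 0.673). ARHGEF11 was at 5.45, 5.38 and 5.88 in control and 5.29, 5.33 and 5.37 in knockdown replicates 1 to 3, with control replicate 3 far above the rest. ARHGEF3 and ARHGEF5 were at -0.23 ± 0.08 and -0.22 ± 0.09 (limma, adjusted p = 0.0625 and 0.108). ARHGEF3 passed without control replicate 3 (adjusted p = 0.0390) and ARHGEF5 without control replicate 1 (0.0454). Control replicate 3 was the highest array of ARHGEF5, and without it ARHGEF5 was at -0.12 (adjusted p = 0.155). ARHGEF40, at 0.11 ± 0.09 over all arrays, rose without control replicate 3 (adjusted p = 0.0213). The other 7 RhoA-directed GEFs, ARHGEF10, ARHGEF10L, ARHGEF15, ARHGEF17, ARHGEF19, ARHGEF25 and ARHGEF28, lay between -0.18 and 0.12 and did not pass.

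Of 5 measured RhoGEFs directed at Rac, Cdc42 or RhoG, 0 passed in either direction (limma, 0 higher and 1 lower at an unadjusted p under 0.05). Of all genes 22.5% passed, with 13.1% higher and 22.2% lower at the unadjusted limit. ARHGEF7 and ARHGEF6, the PIX proteins that bind PAK kinases, were at -0.15 ± 0.07 and 0.19 ± 0.11 (log2 fold change ± SE). ARHGEF7 was at 8.21, 8.18 and 8.22 in control and 8.01, 8.05 and 8.11 in knockdown replicates 1 to 3, groups that did not overlap, with an adjusted p of 0.139 in limma. It turned to 0.12 with probe sets averaged and to 0.82 with _s_at and _x_at probe sets avoided, and passed in neither. The probe set behind the 0.82 was at 5.21, 4.42 and 3.05 in control replicates 1 to 3. Without control replicate 3 its log2 difference was 0.235. ARHGEF4 (Asef), a GEF activated by the tumour suppressor APC, was at 0.20 ± 0.10, ARHGEF16 at -0.07 ± 0.09 and ARHGEF26 at -0.08 ± 0.10. Both group means of ARHGEF4 and ARHGEF6 lay below the low-end reference.

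Of the 3 remaining GEFs, ARHGEF37, which has a membrane-binding BAR domain, passed as lower. It was at 4.00, 4.25 and 4.30 in control and 3.75, 3.6 and 3.52 in knockdown replicates 1 to 3 (log2 signal), and the log2 fold change was -0.56 ± 0.12 SE (limma, adjusted p = 0.00723). Both means lay below the low-end reference. ARHGEF37 has 2 probe sets with the same mean signal of 3.90, of which the first in the table was used; the other was at 0.18 and did not pass (adjusted p = 0.237 when used in its place). The direction of ARHGEF37 therefore depends on the probe set. ARHGEF38 and ARHGEF39 were at 0.09 ± 0.18 and -0.13 ± 0.11.

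Groups did not overlap for 20 of the 51 genes (39.2%), 7 higher and 13 lower after knockdown, against 40.3% of all genes (15.7% higher and 24.6% lower). For RhoGEFs these counts were 1 and 7 of 22, and for RhoGAPs 6 and 6 of 29. The 42 genes that did not pass had log2 fold changes from -0.24 to 0.35. The median SD was 0.14 over control arrays and 0.09 over knockdown arrays. Control replicate 3 was the highest control array for 36 of the 51 genes (70.6%), against 56.0% of all genes. On the brightness limit itself, the genes just inside were ARHGEF38 and ARHGEF4, with mean signals of 3.79 and 3.80, and the one just outside was the intronic transcript ARHGAP22-IT1 at 3.59. ARHGAP25, ARHGAP28, ARHGAP36 and ARHGEF33 also lay below it.

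The 51 genes had 106 probe sets past the limit, from 1 to 5 a gene, and 25 genes had a single one. In a fit over all 27004 single-gene probe sets, 7 of the 106 passed (6.6%) against 11.8% of all probe sets. On 8 dimmer probe sets control replicate 3 lay at least 0.5 below both other control arrays, and no other control array did so on any of the 106. The same gap was found on 7.28% of all probe sets. For ARHGAP23 the probe set of this kind was at 6.04, 6.08 and 4.08 in control and 6.25, 6.12 and 6.30 in knockdown replicates 1 to 3, and for ARHGAP1 it was at 7.69, 7.59 and 6.08 in control and 7.96, 7.87 and 7.88 in knockdown replicates. Their log2 differences went from 0.82 and 0.78 over all arrays to 0.16 and 0.26 without control replicate 3. The others belong to ARHGAP5, ARHGAP27, ARHGAP35, ARHGEF28 and, with 2, ARHGEF7. None was the brightest probe set of its gene.

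**Figure D3:**
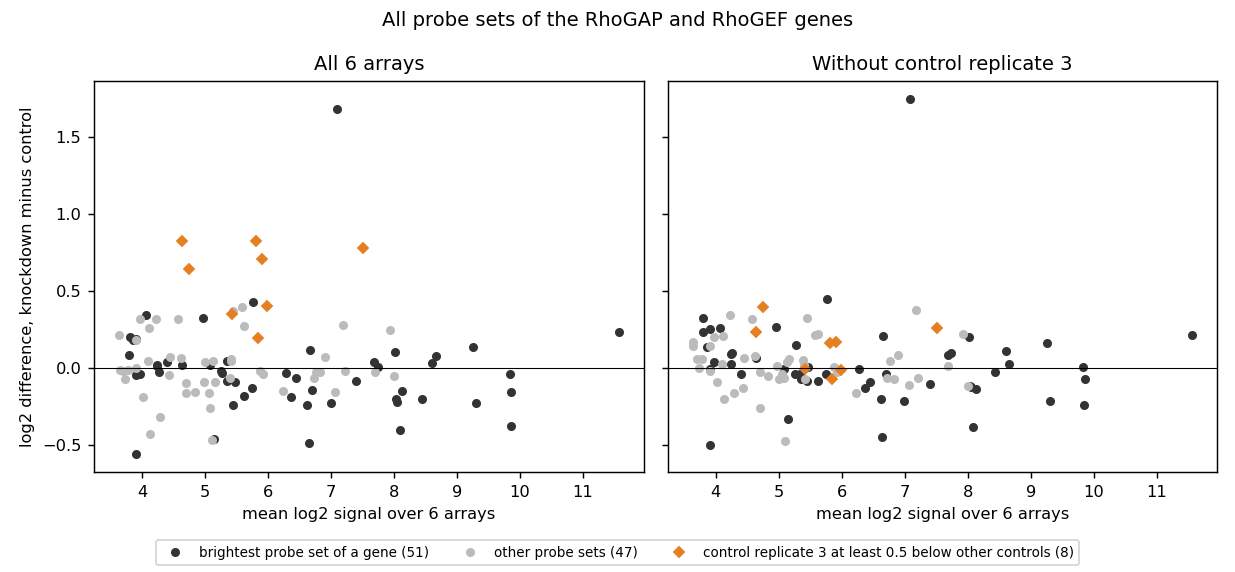
Log2 difference between knockdown and control means (vertical axis) against mean log2 signal over 6 arrays (horizontal axis) for all 106 probe sets of the RhoGAP and RhoGEF genes, with all arrays on the left and without control replicate 3 on the right. The 8 orange probe sets, on which control replicate 3 was low, move from between 0.19 and 0.82 to between -0.07 and 0.40, while ARHGAP6 stays highest in both panels.

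Other regulators of these GTPases were read in lists of standard members, against 14.3% falls and 8.13% rises among all genes. At an unadjusted p under 0.05 (limma) 22.2% of all genes were lower and 13.1% higher. Of 8 measured DOCK genes and their ELMO partners, an unrelated class of exchange factors for Rac and Cdc42, 5 fell and 0 rose (limma, 7 lower and 0 higher at an unadjusted p under 0.05), with a median log2 fold change of -0.37. DOCK5 was at 6.64, 6.59 and 6.84 in control and 5.62, 5.69 and 5.41 in knockdown replicates 1 to 3 (log2 signal), a log2 fold change of -1.12 ± 0.11 SE. It was -0.67 with probe sets averaged and -0.76 with _s_at and _x_at probe sets avoided, and passed in both. DOCK11, DOCK4 and DOCK9 fell as well, at -0.86 ± 0.09, -0.71 ± 0.10 and -0.42 ± 0.11, and ELMO2, added after its value was seen, was at -0.31 ± 0.09. All 4 DOCK genes had groups that did not overlap, as did 99.7% of all genes past the threshold. With probe sets averaged the DOCK9 call was lost (-0.19, adjusted p = 0.188). Leaving out knockdown replicate 1, 2 or 3 also ended it (limma, adjusted p = 0.070, 0.0813 and 0.0576), and each of these left 3 called genes in the list.

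Of 28 Dbl-type RhoGEFs with other symbols 2 rose and 5 fell, with a median log2 fold change of -0.02. VAV3, a GEF switched on by tyrosine kinases, was at 6.07, 5.87 and 6.03 in control and 7.19, 7.22 and 7.19 in knockdown replicates 1 to 3 (log2 signal). It rose 2.31-fold (limma, adjusted p = 2.01e-05) with no overlap of the groups. Its paralog VAV2 fell, at -0.48 ± 0.09, as did DNMBP, a Cdc42 GEF of cell junctions, at -0.49 ± 0.08, and TIAM2, a Rac GEF, at -0.31 ± 0.09. PLEKHG3 (-0.36 ± 0.10) and FARP1 (-0.34 ± 0.10) also fell and NET1, a RhoA GEF, rose (0.25 ± 0.07), all 3 named after their values were seen. Leaving out any array but control replicate 3 ended the TIAM2 call (limma, adjusted p = 0.0504 to 0.104). With probe sets averaged the VAV2 and TIAM2 calls were lost (-0.15 and -0.17, adjusted p = 0.262 and 0.205) and DNMBP turned to 0.12 (0.757). The list had 4 called genes without control replicate 2 and 3 without knockdown replicate 1, 2 or 3.

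Of 17 RhoGAPs with other symbols 0 rose and 5 fell, with a median log2 fold change of -0.12. At an unadjusted p under 0.05 (limma) 0 were higher and 6 lower, against 13.1% and 22.2% of all genes. The genes that fell were ABR (-0.36 ± 0.06), SYDE2 (-0.46 ± 0.11), GMIP (-0.50 ± 0.13), FAM13A (-0.27 ± 0.08) and, named after its value was seen, BCR (-0.32 ± 0.10). Without control replicate 2 there were 2 called genes in this list, and without knockdown replicate 1, 2 or 3 there were 3, 1 and 1. SYDE2 was lost without any one of these arrays, GMIP without knockdown replicate 2 or 3, and FAM13A without control replicate 2 or knockdown replicate 2 or 3 (adjusted p = 0.0522 to 0.165). With probe sets averaged FAM13A turned to 0.14, and the ABR and GMIP calls were lost, at -0.18 and -0.09 (adjusted p = 0.268 and 0.429).

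Of 3 RhoGDI genes, whose products hold GTPases in the cytosol, ARHGDIA fell (-0.37 ± 0.09, limma, adjusted p = 0.0173) and was lost without knockdown replicate 1, 2 or 3 (0.0538, 0.0624 and 0.0803); with its probe sets averaged it was at 0.17.

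Of 15 target genes of SRF or its actin-regulated cofactor MRTF 0 rose and 2 fell, or 13.3% against 14.3% of all genes. At an unadjusted p under 0.05 (limma) 0 were higher and 3 lower, against 13.1% and 22.2% of all genes. The genes that fell were CCN1 at -0.85 ± 0.10 and JUNB at -0.25 ± 0.08. The JUNB call was lost without control replicate 2 and without each knockdown array (adjusted p = 0.0777 to 0.162). Without knockdown replicate 1, 2 or 3 the list had 1 called gene.

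**Figure D4:**
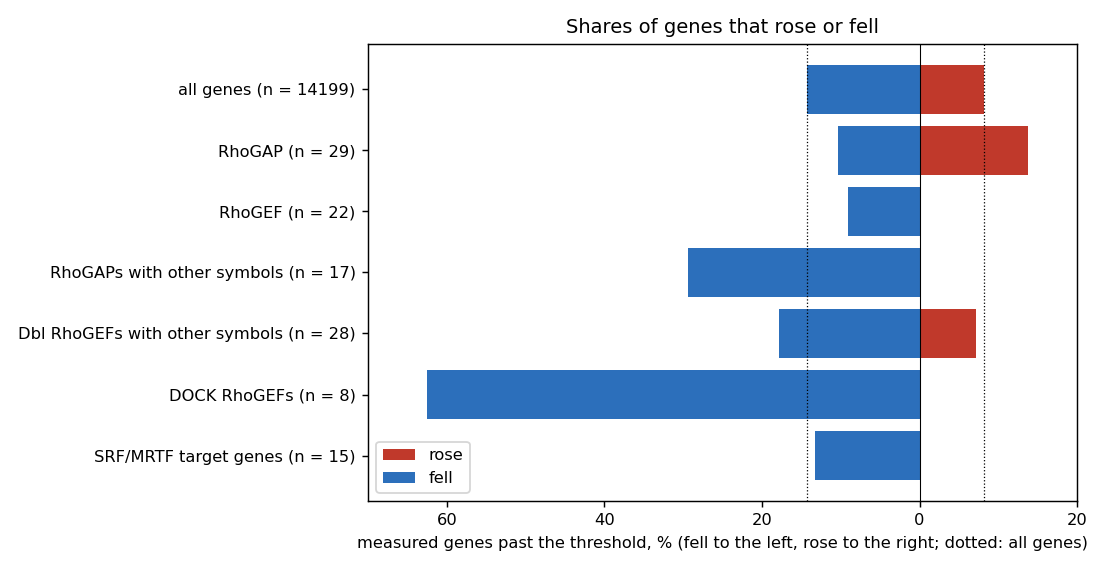
Share of measured genes that fell (blue, to the left) or rose (red, to the right) in percent, for all genes, the RhoGAP and RhoGEF genes and 4 further lists. The RhoGAP genes have 13.8% rises, above the dotted line of all genes at 8.13%, and the DOCK list has 62.5% falls; both rest on few genes.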

How the data were processed

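The authors deposited log2 signals of 54675 probe sets for 6 one-colour Affymetrix arrays. That the scale is log2 was inferred from the range of 1.29 to 13.68. The submitters' processing notes name MAS5, with no version or role, and the summary and normalization steps are not stated in the labels. Array medians lay between 4.20 and 4.25, so no further scaling was applied. The number of arrays limits the precision.

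Probe sets took their genes from the platform annotation, with symbols updated to RefSeq (GRCh38.p14) through Entrez identifiers. There were 41091 with 1 gene, 1801 with several and 11721 unnamed, and 19735 of 19775 genes matched. A linear model in limma 3.58.1 (R 4.3.3; lmFit, then eBayes with the variance trended on signal) gave two-sided p-values, adjusted by Benjamini and Hochberg's method across 14199 genes, with a threshold of 0.05. The fit was checked on simulated data.

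The members and lists were chosen with earlier results of these data known. Of the pathway lists, 2 are not reported here. Named were all 51 genes, PSMD10, NFIL3 and up to 4 called genes of smallest p from each pathway list; genes marked in the text were added after their values were seen. Array values were planned for called genes changed by at least 0.5 (log2), and those of further genes were added. Alternatives covered scaling, the filter, the probe set used, the variance model, a replicate block and each array left out.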

Additional observations from a re-analysis of the deposited data

How the results depend on the processing

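Directions of 8 of the 9 called RhoGAP and RhoGEF genes held under the 15 alternatives chosen first, ARHGAP23 being the exception. For ARHGAP42 and ARHGEF37, not measured under the stricter filter, this covers the other 14. ARHGAP6, ARHGAP45 and ARHGEF18 passed in each of the 15. ARHGAP6 and ARHGEF18 have a single probe set past the limit, so the settings that vary the probe set could not change their values. Reversed log2 fold changes of called genes were 0.14 for ARHGAP23, 0.17 for ARHGDIA, 0.14 for FAM13A and 0.12 for DNMBP with probe sets averaged, 0.33 for FAM13A with _s_at and _x_at probe sets avoided, and 0.18 for ARHGEF37 with its second probe set, an alternative chosen after seeing the data that left 1 fallen RhoGEF. Of the 42 genes not called, 22 changed sign under some alternative, none past the threshold (limma); only ARHGAP35, ARHGEF7 and ARHGEF40 had a main change of at least 0.1. With probe sets averaged there were 2 risen and 1 fallen RhoGAP, 2 other RhoGAPs, 3 Dbl RhoGEFs, 3 DOCK genes and 1 SRF/MRTF target. Without the intensity trend 1 RhoGAP fell. Other RhoGAPs numbered 3 under quantile normalization, with no filter, with _s_at and _x_at avoided and with no trend, and SRF/MRTF targets 1 with no filter, centred arrays, _s_at and _x_at avoided, no trend or the replicate block. The causes were not tested.

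Leaving out 1 array at a time gave 2 to 4 risen and 1 to 4 fallen RhoGAPs, 0 to 1 risen and 2 to 3 fallen RhoGEFs, 0 to 1 RhoGDI genes, 1 to 5 other RhoGAPs, 3 to 8 Dbl RhoGEFs, 3 to 6 DOCK genes, 1 to 3 SRF/MRTF targets and a PSMD10 change of -3.81 to -3.67. Same-numbered arrays did not deviate together (correlations 0.02, 0.11 and -0.01). This cannot tell whether samples were handled in pairs, which the labels do not state. With the replicate block 3 RhoGAPs rose and 4 fell, and 2 RhoGEFs fell: ARHGAP42 was lost (adjusted p = 0.0548) and ARHGAP21 passed. Of the pathway genes named by rule, FAM13A, TIAM2 and JUNB were lost. Signals near the low-end reference limit 13 of the 51 genes, whose group means both lie below it. They are ARHGAP4, ARHGAP9, ARHGAP11A, ARHGAP20, ARHGAP22, ARHGAP27P1, ARHGAP30, ARHGAP44, ARHGEF4, ARHGEF6, ARHGEF25, ARHGEF37 and ARHGEF38. The control mean of ARHGAP42 and the knockdown mean of ARHGAP39 also lie below it.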
